A study of Mus musculus with 6 samples.

Results

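The p53 pathway was followed here through 33 genes out of 53379 genes counted. They were chosen by symbol from knowledge of the pathway, with earlier results of these data known. All 33 were found among the counted genes, and all 33 passed the filter on low counts. RNA was sequenced from Min6 cells at passage 28, which derive from a mouse insulinoma and stand in for pancreatic beta cells. The cells had been transduced with lentiCRISPR v2, a lentiviral vector that carries Cas9 together with a guide RNA (gRNA), and the comparison asks which transcripts differ after targeting of Jund, an AP-1 transcription factor gene. In 3 libraries the gRNA was against Rosa26, a locus used as the negative control, and in 3 it was against JunD. Both groups therefore carried the Cas9 vector, were harvested 8 days after transduction, and had spent the last 30 hours in glucolipotoxic conditions, in which glucose and fatty acid are both in excess. No library without Cas9 and no unstressed library was analysed here, and the labels do not say whether the cells were selected, cloned or transduced separately for each replicate. The spread behind the p-values is thus that of these samples and may be technical.

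p53, the product of Trp53, is a transcription factor that is held at low levels by the ubiquitin ligase MDM2 and by its partner MDM4. DNA breaks activate the kinases ATM and CHK2, p53 escapes this control, and it switches on genes that halt the cell cycle, repair DNA, adjust metabolism or lead to cell death. MDM2 and the phosphatase PPM1D are themselves among its targets, so the pathway limits its own activity. Cas9 cuts DNA, and in beta cells p21 restrains proliferation. Only RNA was analysed here, so neither p53 protein nor its activity was measured. Whether this circuit works in Min6 cells was not tested, and levels of its targets are not readouts of p53 activity.

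Totals ran from 41071566 to 50024931 counts per library. Jund itself stood at 39.3, 34.5 and 30.4 CPM (the count scaled to a common library total) with the Rosa26 gRNA and at 22.6, 25.1 and 26.9 CPM with the JunD gRNA, so the groups did not overlap. Of all genes tested, 12.8% were likewise lower in every JunD gRNA library. JunD protein was not measured. The beta-cell genes Ins1, Ins2, Iapp, Pdx1 and Mafa were all expressed. Prss1 of the acinar cell, Col3a1 of the fibroblast and Adgre1 of the macrophage had 0 counts in all 6 libraries. Other markers of their lists were counted in every library, with Krt19 at 49.83 to 62.5 CPM and Cd68 at 2.191 to 3.958 CPM. Col1a1 was at 0.599 to 1.519 CPM, Col1a2 at 0.8612 to 2.139 CPM and Pecam1 at 1.096 to 2.019 CPM. The 10 beta-cell markers summed to 41200 CPM in Rosa26 gRNA replicate 1, to 71760 and 75920 CPM in the other controls and to 74470 to 80380 CPM with the JunD gRNA, and of these markers 0 passed with 6 libraries, while without that replicate 5 rose and Iapp fell. Iapp did not pass once GC content and length were corrected for (adjusted p = 0.661). Of 6 markers of other islet cells 4 passed the count filter, with sums of 535.3 to 721.4 CPM and 672.1 to 701.3 CPM, mostly Gcg at 522.8 to 686.2 CPM, and Ppy fell without replicate 1. Of 7 exocrine and duct markers 1 passed it (sums of 49.88 to 57.95 and 60.38 to 62.69 CPM), and of 10 markers of stroma, endothelium and blood 4 did (7.095 to 9.715 and 5.283 to 7.073 CPM). The part of these differences in the results was not tested. Rosa26 gRNA replicate 1 stood apart from the rest, at -62.1 on a first principal component that held 45.8% of the variance and placed the others between 6.09 and 22.5. The main comparisons are therefore made with all 6 libraries and without that library. "Rose" and "fell" are used only for genes past an adjusted p of 0.05 over all genes in edgeR's quasi-likelihood test, and a standard error (SE) belongs to the log2 fold change of JunD gRNA against Rosa26 gRNA. In this test Jund did not pass with 6 libraries (-0.47 ± 0.11, adjusted p = 0.417). It fell without replicate 1 (-0.38 ± 0.08, adjusted p = 0.00773). With Rosa26 gRNA replicate 2 or 3 left out as well, which leaves 1 control library, its log2 fold change was -0.284 or -0.463. Jund did not pass in either of these fits.

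Start-site sequences show where the p53 and AP-1 motifs lie in 3 of the genes described in the following paragraphs. Cdkn1a is shown as the member whose window held a pair of p53 decamers, Ccng1 for a single decamer beside a lower level, and Mdm4 as a gene that fell without replicate 1 and held an AP-1 motif. Each sequence is the 250 bases upstream of a RefSeq transcript start on GRCm38.p6, read 5′ to 3′ on the gene's strand. Capitals mark the motif: the paired decamers with the bases between them in Cdkn1a, the decamer in Ccng1 and the AP-1 motif in Mdm4.
Cdkn1a, chr17:29090729-29090978, plus strand: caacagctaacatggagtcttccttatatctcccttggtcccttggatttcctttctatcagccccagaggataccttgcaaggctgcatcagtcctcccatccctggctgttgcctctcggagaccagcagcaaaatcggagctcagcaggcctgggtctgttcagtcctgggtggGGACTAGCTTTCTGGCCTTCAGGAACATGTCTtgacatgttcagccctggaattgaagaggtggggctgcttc
Ccng1, chr11:40755287-40755536, minus strand: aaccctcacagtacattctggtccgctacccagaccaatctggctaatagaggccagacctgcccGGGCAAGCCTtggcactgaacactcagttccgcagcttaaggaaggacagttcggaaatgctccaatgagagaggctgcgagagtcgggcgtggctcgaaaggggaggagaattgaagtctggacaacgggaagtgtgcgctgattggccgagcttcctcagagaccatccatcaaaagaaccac
Mdm4, chr1:133025417-133025666, minus strand: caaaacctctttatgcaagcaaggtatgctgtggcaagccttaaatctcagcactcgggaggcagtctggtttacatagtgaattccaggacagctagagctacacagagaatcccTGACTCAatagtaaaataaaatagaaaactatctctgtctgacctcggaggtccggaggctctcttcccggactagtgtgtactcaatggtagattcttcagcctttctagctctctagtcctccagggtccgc

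The RefSeq table held 33 windows of 300 bases (250 before to 50 after a start) for 25 of the members. Trp53inp1, Zmat3, Pmaip1, Perp, Tnfrsf10b, Ddb2, Xpc and Rrm2b were not among them. Both strands were searched for the p53 decamer (the consensus unit that is repeated in a p53 response element), for 2 decamers with up to 13 bases between them, for the AP-1 motif TGACTCA and for the CRE motif TGACGTCA. A single decamer was found in 11 members, namely Aen, Bax, Ccng1, Cdkn1a, Ei24, Gadd45a, Mdm2, Polk, Ppm1d, Sesn1 and Trp53. These were 12 of the 33 member windows, where overlapping windows of Aen share a match, against 8.36% of all 32851 windows. Paired decamers were found in Cdkn1a alone, 73 to 42 bases before the start, and in 0.0731% of all windows. The single decamers counted for Cdkn1a are the ones that make up this pair. Only exact matches were counted. The bases tgacatgttc right after the pair depart from the decamer at their first base alone and are in lower case for that reason. The capitals are thus matches of this search and not a mapped response element. The AP-1 motif was found in Mdm4, 134 to 128 bases before a start, and in Fas. That is 2 of the 33 member windows, against 5.2% of all windows. Whether the motif bears on the level of Mdm4 was not tested. The CRE motif was found in Btg2, Plk2 and Ppm1d, in 3 of the 33 member windows against 1.79% of all windows. These matches describe letters in the window and do not show binding.

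With all 6 libraries no member rose and none fell in edgeR, and 0.0% of the 17767 genes tested passed in either direction. The unadjusted p was under 0.05 for 8 of the 33 members and for 2119 genes in all (11.9%). Without Rosa26 gRNA replicate 1, Trp53inp1 and Mdm4 fell, 0 members rose and 31 did not pass. Those 2 calls are 6.06% of the members, and 2.86% of the 18296 genes tested passed. Neither passed when Rosa26 gRNA replicate 2 or 3 was left out as well, which leaves 1 control library (adjusted p = 0.105 and 0.243 for Trp53inp1, 0.203 and 0.341 for Mdm4). In bulk RNA, a level that is lower in every cell and one that is lower in part of the cells cannot be told apart. Other tools on 6 libraries gave 0 members in DESeq2 (0.377% of genes called) and limma-voom (0.0%), Trp53inp1 in edgeR without a count filter (0.292%), and both genes in limma-voom with sample weights (1.65%). On the 5 libraries limma-voom (3.21%) added Plk3 as higher, and DESeq2 (3.42%) added Plk3 as higher and Ccng1 as lower. The median log2 fold change of the members was -0.08 with 6 libraries and -0.07 with 5, beside -0.01 and -0.003 over all genes tested. A negative value was found for 20 and 22 of the 33. Median absolute log2 fold changes were 0.159 and 0.103, beside 0.158 and 0.107 over all genes. The median SE was 0.117 with 6 libraries and 0.0658 with 5.

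For 14 members the 2 groups held no overlapping values. In 12 of them (36.4%) every JunD gRNA library was lower, compared with 12.8% of all genes tested, and in 2 (6.06%) every one was higher, compared with 11.6%. The lower members were Mdm2, Mdm4, Cdkn1a, Ccng1, Zmat3, Trp53inp1, Eda2r, Pmaip1, Perp, Ei24, Polk and Rrm2b, and the higher ones Plk3 and Tigar. Of the lower ones, Mdm2, Mdm4, Ccng1, Trp53inp1, Eda2r, Pmaip1, Polk and Rrm2b are among the 11 members of lowest GC content. In those 11, Rosa26 gRNA replicate 1 was the highest library for 9. How far GC content bears on the share of 36.4% was not tested. Overlap was judged on CPM, for members and all genes alike, without the TMM normalization factors of the fits. Those factors were 0.9942 to 1.0203 with the Rosa26 gRNA and 0.9898 to 1 with the JunD gRNA. Some margins were narrow. For Ei24 the lowest control, replicate 2, was at 93.55 CPM and the highest JunD gRNA library, replicate 3, at 93.09 CPM. Division by their factors, 1.0024 and 0.9898, reverses that order, so the groups of Ei24 overlap on the scale of the fits. The heat map by library shows these members as rows whose left and right sides differ in colour.

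**Figure D1:**
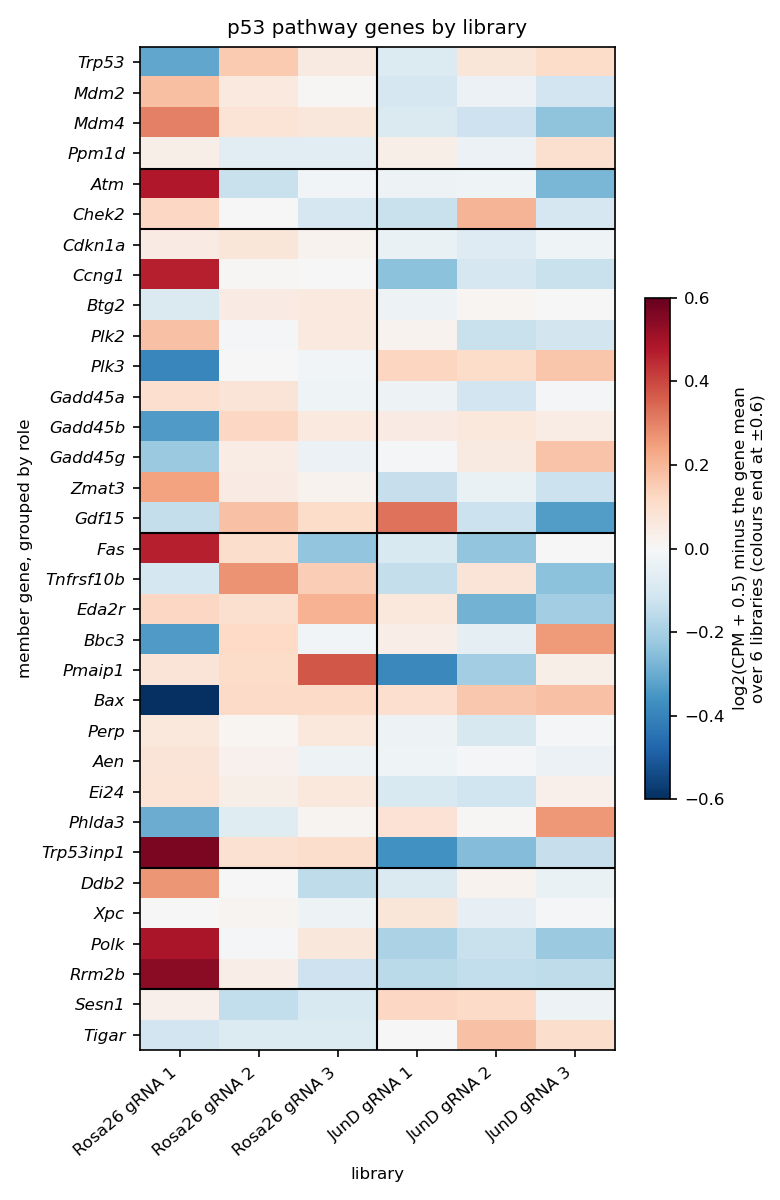
Each row is one of the 33 members and each column a library, with the colour giving log2(CPM + 0.5) minus the gene's mean over the 6 libraries. Horizontal lines separate p53 and its controllers, damage kinases, arrest targets, death targets, repair targets and metabolic targets, and the first column, Rosa26 gRNA replicate 1, was the highest library for 14 members and the lowest for 9.

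Trp53 itself did not pass with either set of libraries. Its level was 51.99, 72.22 and 67.23 CPM with the Rosa26 gRNA and 61.21, 68.08 and 69.86 CPM with the JunD gRNA. The lowest value was that of Rosa26 gRNA replicate 1, and the groups overlapped. The log2 fold change was 0.07 ± 0.13 (SE) with 6 libraries and -0.07 ± 0.06 with 5, a change of sign. In GRCm38 (mm10) the gene spans bases 69580359 to 69591873 of chromosome 11, plus strand, in 7 exonic blocks.

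The partners that hold p53 down were lower in each JunD gRNA library than in any Rosa26 gRNA library. Mdm4, whose product binds and masks p53, stood at 148.3, 127.3 and 126.0 CPM with the Rosa26 gRNA and at 113.1, 110.4 and 101.5 CPM with the JunD gRNA. The order of the groups was thus the same with or without the high first library. Mdm4 (chromosome 1, 132959484 to 133030561, minus strand) fell by 0.22 ± 0.05 (SE) on the log2 scale with 5 libraries (adjusted p = 0.0128). With 6 libraries its log2 fold change was -0.29 ± 0.08 (adjusted p = 0.417). Mdm2, the ubiquitin ligase gene, stood at 136.7, 125.4 and 121.1 CPM and at 112.3, 117.4 and 111.3 CPM. Its 3 JunD gRNA libraries were again the lowest, by a narrower margin, and its log2 fold change was -0.15 ± 0.07 with 6 libraries and -0.11 ± 0.04 with 5 (adjusted p = 0.417 and 0.198). Ppm1d, which encodes the phosphatase that switches the response off, was at 43.4 to 46.6 CPM and 44.3 to 48.6 CPM, with overlapping groups and a log2 fold change of 0.08 ± 0.07 and 0.10 ± 0.06.

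The 2 damage kinases did not pass. Atm, the kinase that senses double-strand breaks, was at 99.2, 64.5 and 70.1 CPM with the Rosa26 gRNA and at 69.3, 69.5 and 58.6 CPM with the JunD gRNA. Rosa26 gRNA replicate 1 was far above the other 5 libraries, and the log2 fold change went from -0.23 ± 0.15 (SE) with it to -0.03 ± 0.06 without it. Chek2, the gene of the kinase that ATM activates, was between 10.1 and 12.9 CPM in all 6 libraries, with a log2 fold change of 0.00 ± 0.12 and 0.05 ± 0.11.

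Among the 10 targets that act on the cell cycle and growth, none passed with 6 or 5 libraries, and 6 and 8 respectively had a negative log2 fold change. Cdkn1a encodes p21, the cyclin-dependent kinase inhibitor through which p53 halts the cycle. It stood at 224.4, 227.9 and 220.1 CPM with the Rosa26 gRNA and at 210.5, 205.0 and 212.6 CPM with the JunD gRNA. The groups did not overlap, and replicate 1 lay within its group. The log2 fold change was -0.08 ± 0.06 (SE) with 6 libraries and -0.09 ± 0.04 with 5 (adjusted p = 0.526 and 0.252). Cdkn1a occupies bases 29090976 to 29100727 of chromosome 17.

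Ccng1, which encodes cyclin G1 of the MDM2 feedback loop, stood at 184.7, 133.9 and 133.8 CPM and at 112.3, 124.5 and 121.7 CPM. The distance between the groups was smaller without replicate 1, and the log2 fold change was -0.32 ± 0.12 with 6 libraries and -0.16 ± 0.05 with 5 (adjusted p = 0.417 and 0.0704). Zmat3, an RNA-binding protein gene, followed the same order, at 92.8, 81.2 and 79.5 CPM against 71.3, 76.2 and 71.6 CPM. Its log2 fold change was -0.19 ± 0.08 and -0.13 ± 0.05.

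Plk3, a polo-like kinase gene, had the opposite order, at 137.3, 180.7 and 178.3 CPM with the Rosa26 gRNA and 197.0, 194.6 and 202.1 CPM with the JunD gRNA. Its log2 fold change was 0.27 ± 0.11 (SE) with 6 libraries and 0.15 ± 0.04 with 5 (adjusted p = 0.417 and 0.0555). Its relative Plk2 had a negative value, -0.13 ± 0.08 and -0.09 ± 0.07, with overlapping groups. The 3 Gadd45 genes, which encode small stress sensors, overlapped between groups and had log2 fold changes with 6 and 5 libraries of -0.09 and -0.07 for Gadd45a, 0.11 and -0.03 for Gadd45b, which changed sign, and 0.16 and 0.08 for Gadd45g. Btg2, an antiproliferative gene, was between 85.8 and 95.1 CPM in every library. Gdf15, a secreted stress cytokine gene, was at 0.484 to 1.05 CPM, with an SE of 0.38 with 6 libraries and 0.40 with 5.

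Of the 11 targets linked to cell death, Trp53inp1 fell without replicate 1 and 10 did not pass, and 8 had a negative log2 fold change with either set. Trp53inp1 encodes a nuclear protein that promotes p53 phosphorylation and autophagy. It stood at 63.8, 45.7 and 46.3 CPM with the Rosa26 gRNA and at 33.3, 35.8 and 39.0 CPM with the JunD gRNA. All 3 JunD gRNA libraries were below all 3 controls, and the first control was the highest. The log2 fold change was -0.35 ± 0.07 (SE) with 5 libraries (adjusted p = 0.00468) and -0.51 ± 0.13 with 6 (adjusted p = 0.417). Trp53inp1 occupies bases 11156431 to 11174379 of chromosome 4, in 5 exonic blocks.

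The BAX and BH3-only genes differed in their order. Bax, which encodes the pore-forming protein of the mitochondrial outer membrane, was at 30.5, 52.8 and 52.95 CPM with the Rosa26 gRNA and at 52.3, 54.6 and 55.2 CPM with the JunD gRNA. Rosa26 gRNA replicate 1 alone was low, and the log2 fold change was 0.26 ± 0.19 (SE) with it and 0.04 ± 0.05 without it. Part of its exons, 12.2% of the bases, is shared with the gene model Gm45808, which had 0 counts. Bbc3, the gene of PUMA, had 0.17 ± 0.14 and 0.04 ± 0.08. Pmaip1, the gene of NOXA, was at 0.553, 0.580 and 0.794 CPM against 0.263, 0.365 and 0.524 CPM. These groups did not overlap, but the counts were few, and its log2 fold change was -0.71 ± 0.40 and -0.82 ± 0.48.

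Death receptor genes were low. Fas was between 0.146 and 0.553 CPM, and its SE of 0.57 and 0.68 left its log2 fold change of -0.66 and -0.15 unresolved. Tnfrsf10b, the TRAIL receptor gene, was at 6.11, 8.06 and 7.38 CPM against 5.93, 6.99 and 5.50 CPM, with overlapping groups and -0.21 ± 0.15 and -0.33 ± 0.13. Eda2r, the ectodysplasin receptor gene, was at 9.68, 9.46 and 10.3 CPM against 9.26, 7.16 and 7.58 CPM. Here the 3 JunD gRNA libraries were the lowest, with a log2 fold change of -0.28 ± 0.12 and -0.30 ± 0.12 (adjusted p = 0.419 and 0.192). Of the remaining death targets, Perp, a membrane protein gene, had -0.08 ± 0.08 with either set and Ei24, an endoplasmic reticulum protein gene, had -0.10 ± 0.07 and -0.10 ± 0.05. Aen, an apoptosis-linked nuclease gene, had -0.03 ± 0.07 and -0.02 ± 0.05. Phlda3, which encodes an inhibitor of AKT, had 0.26 ± 0.12 and 0.16 ± 0.09.

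**Figure D2:**
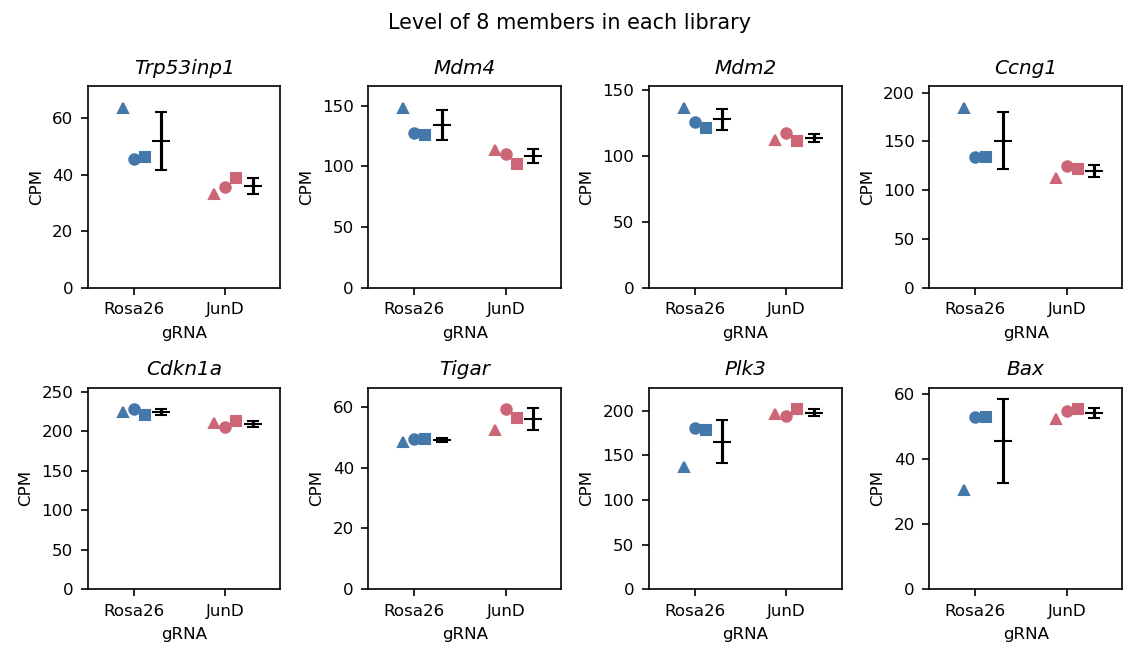
CPM of 8 members by gRNA, with triangle, circle and square for replicates 1, 2 and 3, and the mean ± SD (n = 3) in black. Trp53inp1, Mdm4, Mdm2, Ccng1 and Cdkn1a lie lower in all JunD gRNA libraries, Tigar and Plk3 higher, and Bax is low in Rosa26 gRNA replicate 1, at 30.5 CPM.

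The 4 repair and nucleotide supply targets did not pass. Polk, a translesion DNA polymerase gene, was at 29.4, 20.7 and 21.8 CPM with the Rosa26 gRNA and at 18.2, 18.9 and 17.8 CPM with the JunD gRNA, with a log2 fold change of -0.37 ± 0.13 (SE) and -0.21 ± 0.08. Rrm2b, the p53-induced ribonucleotide reductase subunit gene, was at 21.7, 15.1 and 13.5 CPM against 13.1, 13.2 and 13.2 CPM, with -0.32 ± 0.16 and -0.11 ± 0.09. In both the groups did not overlap, and the first control was the highest library by a wide margin. Xpc, a damage recognition gene of nucleotide excision repair, was between 22.7 and 24.7 CPM in every library. Ddb2, its partner in recognition, was between 10.7 and 14.4 CPM, and 23.8% of its exonic bases overlap the antisense gene Acp2 (2143 to 2916 counts). If strand was not used, its count could be off in either direction, depending on how reads shared by both genes were counted.

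Both metabolic targets had positive values. Tigar, which encodes a fructose-bisphosphatase that diverts glucose to the pentose phosphate pathway, stood at 48.4, 49.5 and 49.5 CPM with the Rosa26 gRNA and at 52.3, 59.4 and 56.6 CPM with the JunD gRNA. The 3 controls were close together and all JunD gRNA libraries were above them. The log2 fold change was 0.21 ± 0.08 (SE) with 6 libraries and 0.18 ± 0.06 with 5 (adjusted p = 0.417 and 0.0896). Sesn1, the gene of an mTORC1 inhibitor, was at 20.7, 18.3 and 19.0 CPM against 22.13, 22.01 and 19.83 CPM, with overlapping groups and 0.16 ± 0.09 and 0.20 ± 0.08.

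**Figure D3:**
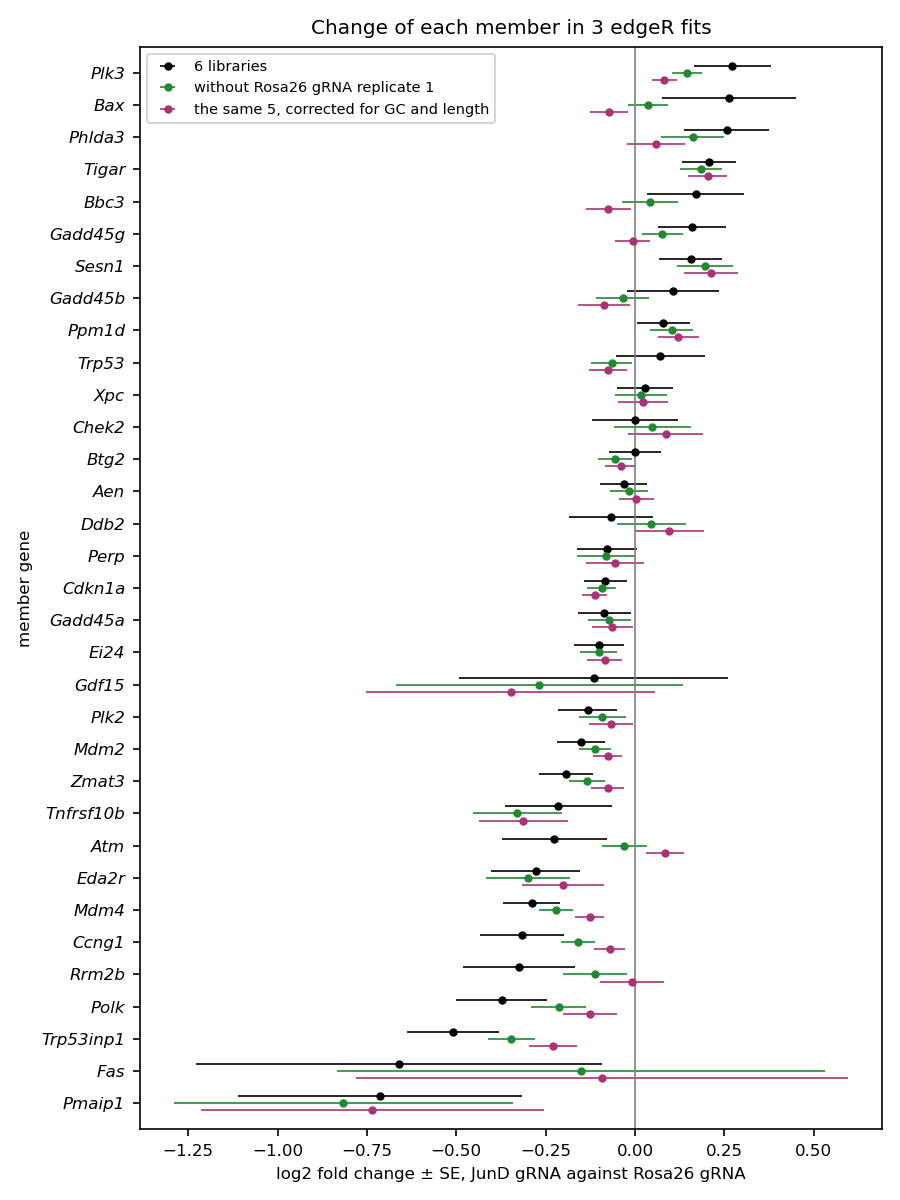
Log2 fold change ± SE of each member, JunD gRNA against Rosa26 gRNA, with 6 libraries in black, without Rosa26 gRNA replicate 1 in green, and with the same 5 libraries corrected for GC content and transcript length in purple. Trp53inp1 moves from -0.51 to -0.35 and -0.23, whereas Tigar stays at 0.21, 0.18 and 0.20.

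The members spanned a wide range of levels. As RPKM, here the mean CPM of the 3 control libraries divided by the exonic length in kilobases, the highest levels were Plk3 at 65.4, Cdkn1a at 63.1, Gadd45g at 48.8 and Ccng1 at 42.9. The lowest were Fas at 0.165, Pmaip1 at 0.235 and Gdf15 at 0.424. Trp53 stood at 15.8, between Mdm2 at 25.1 and Mdm4 at 9.05.

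The change of a member followed the GC content of its transcript. With all 6 libraries the Spearman correlation between log2 fold change and the GC content of the longest annotated transcript was 0.824 over the 33 members, and 0.475 over 17743 genes tested with a known GC content. Without Rosa26 gRNA replicate 1 it was 0.567 and 0.277. These points share their libraries and are no replicates of each other. The log2 ratio of replicate 1 to the mean of the other 2 control libraries had a correlation with GC content of -0.783 over the members and -0.495 over all genes tested, so AT-rich members were higher in it. Among the 11 members of lowest GC content (38.8% to 46.2%) all 11 had a negative log2 fold change with 6 libraries and replicate 1 was the highest library for 9. Among the 11 of highest GC content (51.6% to 65.2%) 3 had a negative value, and replicate 1 was the lowest library for 7. Trp53inp1, at 38.8%, had the lowest GC content of all members, Mdm4 was at 43.3%, Tigar at 49.3% and Plk3 at 58.8%.

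A correction of the 5 libraries for GC content and transcript length removed the calls of both members that had fallen. Trp53inp1 was then at -0.23 ± 0.07 (SE, adjusted p = 0.0553) and Mdm4 at -0.13 ± 0.04 (adjusted p = 0.0836). Tigar rose, by 0.20 ± 0.05 (adjusted p = 0.0344), where 3.15% of the 18270 genes passed. Over the alternatives of the 5-library comparison its adjusted p ran from 0.0297 to 0.595. Cdkn1a had a log2 fold change of -0.11 ± 0.03 and did not pass (adjusted p = 0.071). The correction flattens any trend with GC content, whatever gave rise to it, and over all genes the correlation was then -0.007. Over the members it was 0.197, 23 of 33 had a negative value, and the median was -0.07, beside 0.02 over all genes. Each library's deviation from the mean of the other 5 had a Spearman correlation with GC content of 0.263 to 0.419 in the JunD gRNA libraries and of 0.105 and 0.019 in Rosa26 gRNA replicates 2 and 3. In Rosa26 gRNA replicate 1 it was -0.506, and that library is part of the mean used for each of the others. Among the 5 libraries without it, the uncorrected log2 fold change still had a correlation with GC content of 0.277 over all genes. The trend with GC content and the gRNA therefore cannot be told apart, also among the 5 libraries.

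**Figure D4:**
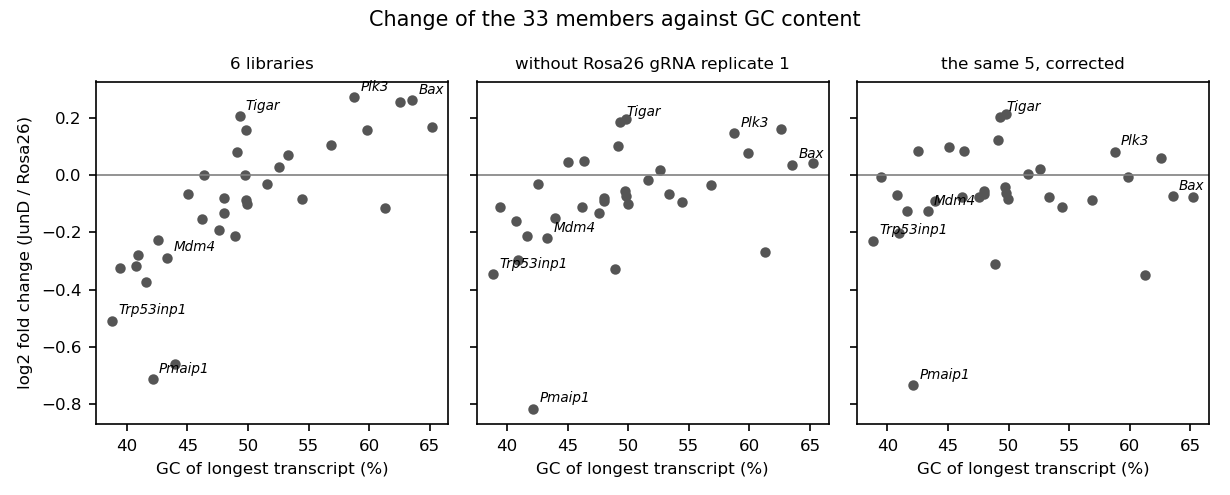
Log2 fold change of the 33 members against the GC content of the longest transcript, with 6 libraries, without Rosa26 gRNA replicate 1, and with the same 5 corrected for GC content and length. The Spearman correlation goes from 0.824 to 0.567 and 0.197, and Trp53inp1 and Mdm4 lie at the AT-rich end.

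Other genes of the pathway, in 5 lists of 152 genes, gave 0 calls with 6 libraries in edgeR and 18 genes with an unadjusted p under 0.05, which is 12.0% of the 150 tested beside 11.9% of all genes. With 5 libraries there were 3 calls, which is 2.0% beside 2.86% of all genes. Both shares were near those of all genes. None of the 3 passed when Rosa26 gRNA replicate 2 or 3 was left out as well. Of 33 tested further p53 targets, Ephx1, the microsomal epoxide hydrolase gene, fell by 0.20 ± 0.05 (SE, adjusted p = 0.0411), 0 rose and 32 did not pass. Its level in replicate 1 was the lowest of all, 55.6 CPM, and with 6 libraries the log2 fold change was -0.07 ± 0.11. After the GC and length correction it passed as well (-0.20, adjusted p = 0.0152). In the same list Ier5, an immediate-early gene, had 0.33 with 6 libraries and 0.25 ± 0.07 with 5, and Slc19a2, a thiamine transporter gene, -0.21 and -0.18 ± 0.07, and neither passed. Ier5 passed after the correction (adjusted p = 0.0312).

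Of 19 tested p53 family members and modifiers, Cdkn2a rose by 0.22 ± 0.06 (SE, adjusted p = 0.0376, against 0.24 and 0.417 with 6 libraries), 0 fell and 18 did not pass. The locus encodes p16INK4A and p19ARF, and ARF binds MDM2. Cdkn2a stood at 96.6, 105.6 and 91.9 CPM with the Rosa26 gRNA and at 110.3, 110.7 and 122.2 CPM with the JunD gRNA, with groups that did not overlap. Its transcript has 60.2% GC, and it did not pass after the correction (0.13, adjusted p = 0.117). A count per gene does not separate its transcripts.

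None of 27 tested genes of damage sensing and checkpoints passed with 6 or 5 libraries in edgeR with its default filter, nor any of 47 DNA repair genes. Prkdc, the DNA-dependent protein kinase gene, had a log2 fold change of -0.39 with 6 libraries and -0.19 ± 0.08 (SE) with 5, and H2afx, the gene of the histone phosphorylated at breaks, 0.32 and 0.18 ± 0.07. Brca2, of homologous recombination, had -0.38 with 6 libraries and -0.25 ± 0.07 with 5 (adjusted p = 0.0519), and Rev1, of translesion synthesis, -0.26 and -0.25 ± 0.07 (adjusted p = 0.0591). Both lay near the threshold and passed as lower on the same 5 libraries with at least 1 CPM required in every library (adjusted p = 0.0447 and 0.0488), in DESeq2 (0.0402 and 0.0471) and in limma-voom (0.0408 and 0.0489). With JunD gRNA replicate 1 left out as well, H2afx passed as higher (adjusted p = 0.0453) and Brca2 as lower (0.0422), and without JunD gRNA replicate 2 so did Rev1 (0.049). After the correction Brca2 was at -0.13 and Rev1 at -0.21. Of 24 tested cell-cycle genes that p53 lowers through p21 and the DREAM complex, Cdc20, an activator of the anaphase-promoting complex, rose by 0.21 ± 0.05 (adjusted p = 0.0278, against 0.30 and 0.417 with 6 libraries), 0 fell and 23 did not pass. It stood at 103.6, 121.9 and 123.8 CPM against 133.6, 138.8 and 152.3 CPM, the groups did not overlap, and it passed after the correction (0.17, adjusted p = 0.0192). E2f1 had 0.19 with 6 libraries and 0.14 ± 0.05 with 5 and did not pass. In the corrected fit these lists also held, named after their values were seen, genes that passed as higher there and did not pass in edgeR's uncorrected fits described above: Cop1, a ubiquitin ligase gene of the modifiers, Parp1 of damage sensing, Pcna of repair and Mcm5 of the cell-cycle genes.

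The median log2 fold change of further p53 targets changed sign, from 0.04 with 6 libraries to -0.06 with 5. The other medians were 0.04 and 0.02 for family members and modifiers, -0.07 and -0.01 for damage sensing, -0.04 and -0.02 for repair and 0.06 and 0.04 for the cell-cycle genes. Over all genes tested they were -0.01 and -0.003. After the GC and length correction the 5 medians, in the same order, were -0.03, 0.03, 0.03, 0.00014 and 0.05, beside 0.02 over all genes. Those of damage sensing and repair thus changed sign.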

How the data were processed

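RNA-seq libraries of 3 Rosa26 gRNA and 3 JunD gRNA samples were compared. The authors deposited raw counts per gene, 1 table a library. TopHat2, featureCounts and mm10 are named in the submitters' processing notes. Their versions, the annotation release, strand setting and library kit were not given in the sources used here. Symbols were matched by Ensembl identifier without version (53274 of 53379). Coordinates, exon lengths and GC content came from GENCODE M21 on GRCm38, promoter sequences from RefSeq on GRCm38.p6.

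Counts were fitted with edgeR 4.0.16 in R 4.3.3 (TMM, filterByExpr, quasi-likelihood test on the group alone, Benjamini-Hochberg adjustment over all genes, threshold 0.05, two-sided), on 6 libraries and without Rosa26 gRNA replicate 1. The SE is the absolute log2 fold change over the square root of F. The GC and length correction used splines with 5 degrees of freedom per library as offsets. Alternatives were DESeq2 1.42.0, limma-voom (limma 3.58.1), other size factors and filters, a replicate block and left-out libraries. Voom with sample weights and the libraries left out of the 5 were added after the data were seen. Members, lists and the fit on 5 libraries were chosen with earlier results of these data known. Named genes are all members, and in each further list those past the threshold and the 2 of smallest p with 6 libraries, apart from a gene that is not reported here. Counts of every 2 libraries differed by more than sampling noise (chi-square per degree of freedom at least 3.27). The procedure was tested on simulated counts.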

Additional observations from a re-analysis of the deposited data

How the results depend on the processing

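With all 6 libraries, edgeR called 0 genes under other size factors, a stricter filter, the replicate block and an adjusted p of 0.1, and limma-voom called 0. Without a count filter edgeR called 33 genes higher and 53 lower, with 1 member (Trp53inp1) lower, and DESeq2 called 20 higher and 47 lower, with 0 members. Sample weights in limma-voom gave 131 higher and 162 lower, with 2 members (Mdm4, Trp53inp1) lower. Leaving out each library gave 0 to 266 genes higher, 0 to 257 lower and 0 to 2 members lower, all nonzero counts coming without Rosa26 gRNA replicate 1. On the 5 libraries, DESeq2 and limma-voom each called 1 member higher (Plk3), and DESeq2 also Ccng1 lower. The GC and length correction called 1 higher (Tigar) and 0 lower. Leaving out 1 more gave 16 to 378 genes higher, 28 to 356 lower, 0 to 1 members higher, 0 to 4 lower and a member median of -0.0779 to -0.0245. Without Rosa26 gRNA replicate 2 or 3, which leaves 1 control assumed to vary like the other group, neither Trp53inp1 nor Mdm4 passed (adjusted p = 0.105 and 0.203, then 0.243 and 0.341). Over all alternatives of the 5-library fit their adjusted p ran from 2.33e-05 to 0.243 and from 0.00248 to 0.341. Most genes named next lay near 0, while Gdf15 (-0.12 ± 0.38 with 6 libraries) and Fas (-0.15 ± 0.68 with 5) had a large SE. All are members except Ephx1, of the further p53 targets. Each changed the sign of its log2 fold change in some settings. With 6 libraries this was so for Btg2 under other size factors (-0.000952), a stricter filter (-0.00228), DESeq2 (-0.00101) and sample weights (-0.0495). Chek2 did so under the first 3 (-0.000851, -0.0022 and -0.000907), limma-voom (-0.00711) and the replicate block (-0.00344). Sample weights also turned Ddb2 (0.036), Gadd45b (-0.0168) and Trp53 (-0.0643). On the 5 libraries the GC and length correction turned Aen (0.00329), Atm (0.0829), Bax (-0.0725), Bbc3 (-0.0751) and Gadd45g (-0.00589). With 1 of the 6 libraries left out, values ranged from -0.0556 to 0.0367 for Btg2, -0.113 to 0.0665 for Chek2, -0.152 to 0.0458 for Ddb2, -0.196 to 0.0239 for Ephx1 and -0.0347 to 0.2 for Gadd45b. They ranged from -0.483 to 0.11 for Gdf15, -0.0655 to 0.172 for Trp53 and -0.00339 to 0.0616 for Xpc. With 1 of the 5 left out they ranged from -0.0382 to 0.0143 for Aen, -0.0868 to 0.0459 for Atm, -0.0608 to 0.117 for Bbc3, -0.0614 to 0.115 for Chek2 and -0.0244 to 0.128 for Ddb2. For Fas they ranged from -0.595 to 0.514, for Gadd45b from -0.0629 to 0.00202 and for Xpc from -0.0118 to 0.0522. Except for the removal of a library, whose construction shows it, the cause was not tested. Deviations from the group means had correlations of 0.055, -0.039 and 0.074 between same-numbered libraries, and of -0.101 to 0.069 between the others. They cannot decide whether the replicate numbers pair the libraries, because Rosa26 gRNA replicate 1 stands apart and is part of the control mean. The replicate block left 0 members called. Members under about 1 CPM (Fas, Pmaip1, Gdf15) are limited by depth.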
